A study of Mus musculus with 6 samples.

Results

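Genes for endothelial cell junctions, the endothelial surface and the TIE receptors were examined in FLK1+ mesodermal cells with and without Scl. The set was defined by gene symbol and held 9 genes, Cdh5, Pecam1, Icam2, Esam, Cldn5, Emcn, Cd34, Tek and Tie1. Of these, 8 were measured and tested among 13991 tested genes of the 14005 listed, and Emcn was not analysed here. The RNA came from FLK1+ cells that had been sorted from embryoid bodies (EBs) at day 3.5 of mouse embryonic stem (ES) cell differentiation. The WT group (J1 ES cells) and the Scl-/- group, which lacks Scl, the product of Tal1, had 3 libraries each, numbered by 3 independent differentiations. The strain label was C57Bl/6 X Sv129 for both libraries of replicate 1 and for WT replicate 2, and its last number went up by 1 in each of the remaining 3 libraries, as in a list filled in automatically, so that a difference in strain cannot be read from it. Because 1 ES cell line stood for each genotype, the line and the genotype cannot be told apart. The comparison asked which of these genes depend on the genotype when the first endothelial and blood progenitors emerge. Values are CPM, the reads of a gene scaled to a common library size, and the reads on listed genes were 39713877, 38623641 and 40769209 in WT replicates 1 to 3 and 47621120, 42108168 and 43662177 in Scl-/- replicates 1 to 3. A gene with 3 reads had 0.0615 to 0.0784 CPM, depending on the library, which covers counting error only.

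Endothelial cells are held together by adherens junctions, built on VE-cadherin (Cdh5) and its catenin partners, and by tight junctions, in which claudin-5 (Cldn5) seals the space between cells. Adhesion molecules of the immunoglobulin superfamily, among them PECAM1, ESAM and ICAM2, sit at the same contacts or on the cell surface and also serve leukocyte passage. CD34 and endomucin (Emcn) are sialomucins of the vascular surface, and CD34 is shared with blood progenitors. TEK (TIE2) is the receptor tyrosine kinase for angiopoietins, and TIE1 is its relative, which has no well-established ligand of its own and modulates TEK signalling.

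Promoters were available for 5 of the 9 genes, and those of the 4 measured ones are shown because these genes were lower together in Scl-/- cells. Cdh5, Pecam1, Icam2 and Esam had no entry. The stretches are the 250 bases before the RefSeq start of each gene in the GRCm38.p6 assembly, 5′ to 3′ on the strand of the gene, namely chr4:94739039-94739288 (plus strand) for Tek, chr1:194938571-194938820 (plus strand) for Cd34 and chr16:18776597-18776846 (plus strand) for Cldn5. For Tie1, 212 bases that lie within an annotated transcript were left out and the 38 bases at chr4:118490062-118490099 (minus strand) remain. Capitals mark matches, on either strand, to the ETS cores AGGAAG and CGGAAG, to the GATA motif AGATAA, to the E-box CAGATG and to the SOX-type motif ACAAAG.
Tek: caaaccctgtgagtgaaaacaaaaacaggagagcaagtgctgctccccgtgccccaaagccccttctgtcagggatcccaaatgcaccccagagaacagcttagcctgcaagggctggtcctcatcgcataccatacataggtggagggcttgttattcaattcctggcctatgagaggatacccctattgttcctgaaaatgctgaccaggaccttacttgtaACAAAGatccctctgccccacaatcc
Cd34: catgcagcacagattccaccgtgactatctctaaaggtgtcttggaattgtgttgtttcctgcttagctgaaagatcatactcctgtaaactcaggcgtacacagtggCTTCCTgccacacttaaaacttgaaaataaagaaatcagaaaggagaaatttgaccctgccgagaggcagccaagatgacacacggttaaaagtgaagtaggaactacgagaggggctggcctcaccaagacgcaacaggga
Cldn5: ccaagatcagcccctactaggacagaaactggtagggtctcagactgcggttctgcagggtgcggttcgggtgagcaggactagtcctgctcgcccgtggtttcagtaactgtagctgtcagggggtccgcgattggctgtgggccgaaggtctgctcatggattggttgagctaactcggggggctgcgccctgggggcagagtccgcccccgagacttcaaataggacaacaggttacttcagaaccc
Tie1: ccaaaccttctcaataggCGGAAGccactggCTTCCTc
Tie1 held CGGAAG at position -232 and AGGAAG, on the other strand, at -219 from its RefSeq start. Cd34 held AGGAAG on the other strand at position -142 from its start, and Tek held ACAAAG at -26. In the part of the Tie1 window that is not shown, CAGATG lay at -183. No AGATAA was found in these 4 windows, and Cldn5 held none of the motifs. Of 32851 promoters of the same length, 3281 held AGATAA, so that its absence from 4 windows does not set these windows apart. Of the same 32851 promoters, 29.5% held AGGAAG, 13.6% CGGAAG, 39.2% at least one of these ETS cores, 14.4% CAGATG and 16.5% ACAAAG. The general E-box CANNTG, which covers CAGATG and is left in lower case, was in 66.2% of them and lay at -217 and -172 in Tek. These matches are descriptions of the sequence, and binding was not analysed here.

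Tal1, the targeted gene, had 303, 182 and 306 CPM in the WT libraries 1 to 3 against 9.35, 5.68 and 5.87 CPM in the Scl-/- ones, so that every library followed its label. Kdr encodes FLK1, the receptor on which the cells were sorted. It had 868, 832 and 867 CPM in WT and 724, 777 and 810 CPM in Scl-/- libraries 1 to 3. Its log2 fold change, given throughout as Scl-/- against WT on log2(CPM + 0.5), was -0.15 (standard error 0.09), with a Benjamini-Hochberg adjusted p of 0.456 from limma and of 0.125 once the replicate number was added as a block. Neither passed. The sort marker was thus abundant in all 6 libraries. Of the genes that mark more mature endothelium, Nos3, Plvap and Vwf were measured, and Lyve1, Selp and Sele were not analysed here.

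All 8 measured genes had lower means in Scl-/- cells. Tie1 and Cdh5 differed most, with 7.25% and 12.2% of the WT mean left, followed by Cd34 with 22.8% and Tek with 27.1%. Cldn5 kept 31.0%, Icam2 36.9%, Pecam1 42.7% and Esam 45.8%. The median log2 fold change of the 8 genes was -1.63, beside 0.009 for all tested genes, of which the middle 95% ran from -0.91 to 0.78. Calls needed an adjusted p below 0.05 together with a log2 fold change of more than 0.48 in size. Without the block 3 of the 8 were called, Tie1, Cdh5 and Cd34, where 1.57% of all tested genes were called as lower, 0.793% as higher and 2.36% in either direction. With the block 8 of 8 were called, where the shares of all tested genes were 6.6% lower, 6.04% higher and 12.6% in either direction. The groups did not overlap for 6 of the 8, as for 10.7% of tested genes in this direction, and the Scl-/- library was the lower of each same-numbered pair for 8 of 8, as for 26.4% of tested genes. These genes were chosen with results of these data known, so that the counts describe them and are no test of the set. In bulk RNA, fewer cells that express a gene and less RNA per cell cannot be told apart.

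The calls without the block depended on which libraries were in the fit. Without WT replicate 1 and without WT replicate 3, 0 of the 8 genes were called by limma, and 6 had an unadjusted p under 0.05 in each case. Of all 13991 tested genes, 44 and 128 were called in these fits, against 330 with all libraries. Tie1 then had adjusted p-values of 0.114 and 0.0626 from limma, at log2 fold changes of -3.62 and -3.24, and those of Cdh5 were -3.04 and -2.84. Without Scl-/- replicate 1 or without Scl-/- replicate 2, Tie1 was the 1 gene still called, and without WT replicate 2 or Scl-/- replicate 3 the 3 genes stayed called. Cdh5 was lost with each of these 4 libraries left out (limma's adjusted p = 0.171 without WT replicate 1, 0.107 without WT replicate 3, 0.0639 without Scl-/- replicate 1 and 0.0542 without Scl-/- replicate 2), and so was Cd34 (0.158, 0.101, 0.0681 and 0.13). Over all tested genes, the calls rose from 330 to 384 without Scl-/- replicate 1, where those of the 8 genes fell from 3 to 1. They were 345 without WT replicate 2 and 162 without Scl-/- replicate 3, and also fell below 330 without Scl-/- replicate 2. With the block, 8 of the 8 genes were called whichever pair was left out.

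**Figure D1:**
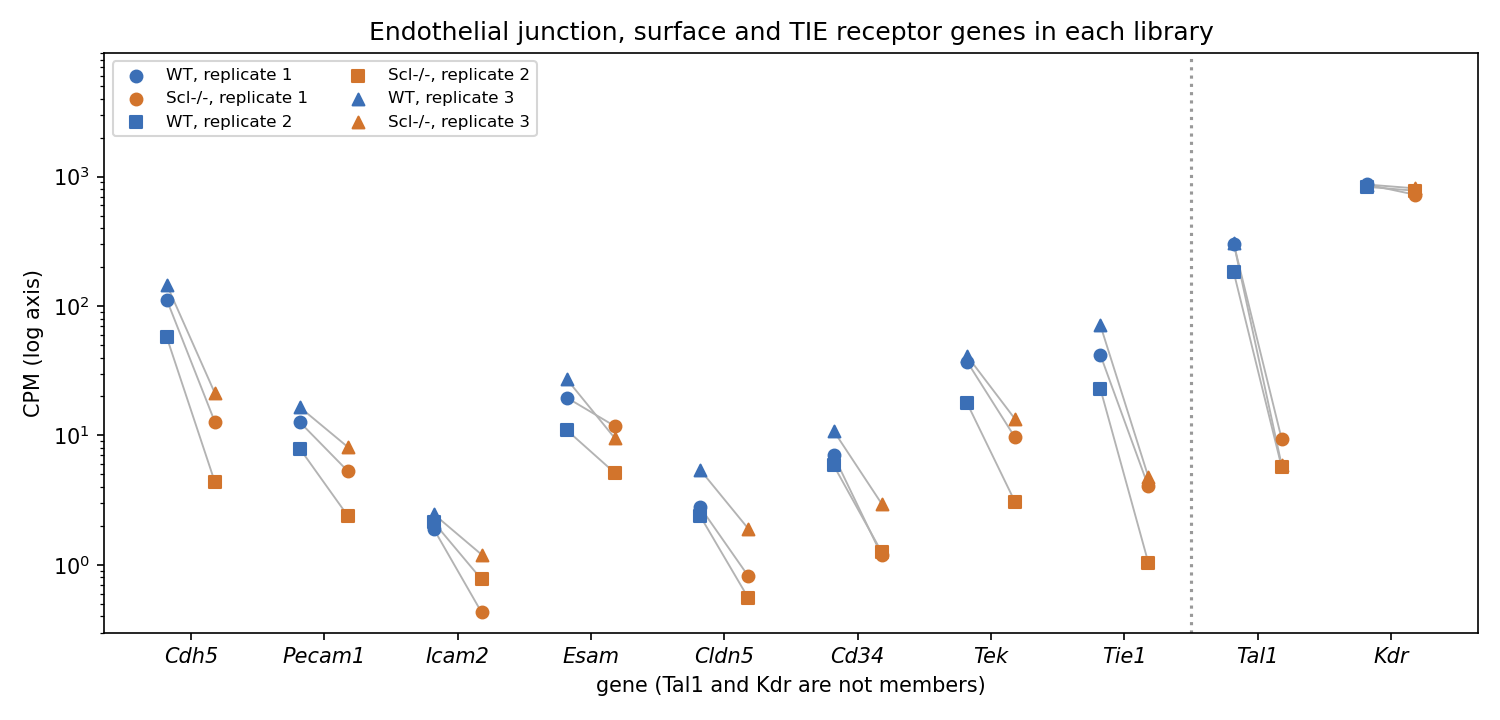
CPM on a log axis of the 8 measured genes and, right of the dotted line, of Tal1 and Kdr, in 3 WT (blue) and 3 Scl-/- (orange) libraries, with grey lines joining libraries of the same replicate number. All lines run down from WT to Scl-/-, those of Kdr only within 724 to 868 CPM.

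Among the junction genes, Cdh5 (Ensembl ENSMUSG00000031871, chromosome 8 from 106625525 to 106668402 of mm9), which encodes the cadherin of endothelial adherens junctions, had 111, 57.2 and 145.6 CPM in the WT libraries 1 to 3 against 12.7, 4.38 and 21.3 CPM in the Scl-/- ones. The highest Scl-/- library lay below the lowest WT library, which was replicate 2. The log2 fold change was -3.13 (95% interval -4.44 to -1.82 without and -3.46 to -2.80 with the block, limma's adjusted p = 0.0355 and 1.35e-05). Cdh5 made up 47.5%, 45.0% and 45.5% of the summed CPM of the 8 genes in WT and 27.8%, 23.6% and 33.7% in Scl-/- libraries.

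Cldn5 (ENSMUSG00000041378, chromosome 16 from 18776940 to 18778353), the claudin of endothelial tight junctions, was low throughout, with 2.78, 2.38 and 5.41 CPM in WT and 0.82, 0.556 and 1.905 CPM in Scl-/- libraries 1 to 3. The groups did not overlap, and the log2 differences within the pairs were -1.32, -1.45 and -1.30. At values this low the pseudocount narrows such differences, and in CPM 29.4%, 23.4% and 35.2% of the WT level was left in pairs 1 to 3. The log2 fold change of -1.35 had a limma adjusted p of 0.131, or 0.00094 with the block.

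Pecam1 (ENSMUSG00000020717, chromosome 11 from 106515531 to 106611942), which encodes a homophilic adhesion molecule of endothelium, platelets and leukocytes, had 12.6, 7.84 and 16.4 CPM in WT and 5.27, 2.37 and 8.10 CPM in Scl-/- libraries 1 to 3. Here the groups overlapped, because Scl-/- replicate 3 lay above WT replicate 2. The log2 fold change was -1.23 (limma's adjusted p = 0.192, or 0.000899 with the block).

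Esam (ENSMUSG00000001946, chromosome 9 from 37335663 to 37345904), an adhesion molecule of endothelial tight junctions, had 19.6, 10.98 and 27.1 CPM in WT and 11.8, 5.12 and 9.50 CPM in Scl-/- libraries 1 to 3. Scl-/- replicate 1 lay above WT replicate 2, so that these groups overlapped as well. Its log2 fold change was -1.07 (limma's adjusted p = 0.211, or 0.00222 with the block). Within pairs, 60.2%, 46.7% and 35.003% of the WT level was left.

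Icam2 (ENSMUSG00000001029, chromosome 11 from 106238970 to 106249389), a ligand of leukocyte integrins, was low in all libraries, with 1.91, 2.14 and 2.48 CPM in WT and 0.43, 0.774 and 1.202 CPM in Scl-/- libraries 1 to 3. The lowest of these values stood for an estimated 21 reads. The WT libraries lay close together, and the Scl-/- libraries were all below them. The log2 fold change of -1.08 (limma's adjusted p = 0.0895, or 0.00537 with the block) is lessened by the pseudocount, since values near 0.5 CPM are raised most.

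Cd34 (ENSMUSG00000016494, chromosome 1 from 196765015 to 196787486), the sialomucin of the set that was measured, had 6.999, 5.88 and 10.9 CPM in WT and 1.19, 1.26 and 2.97 CPM in Scl-/- libraries 1 to 3. Every Scl-/- library lay below every WT library. The log2 fold change was -1.91 (limma's adjusted p = 0.0355, or 0.000156 with the block). In the annotation, 148 of its 2621 exon bases overlap Gm16897 on the other strand, and the strand setting of the counting is not given in the sources used here, so reads there cannot be assigned to one of them.

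The TIE receptors are neighbours in function but not alike in these values. Tek (ENSMUSG00000006386, chromosome 4 from 94405980 to 94541667), the angiopoietin receptor, had 37.3, 17.8 and 41.3 CPM in WT and 9.65, 3.07 and 13.4 CPM in Scl-/- libraries 1 to 3. The groups did not overlap, and WT replicate 2 and Scl-/- replicate 2 were the lowest of their groups. The log2 fold change was -1.95 (95% interval -3.18 to -0.71, limma's adjusted p = 0.116, or 0.000145 with the block). Tie1 (ENSMUSG00000033191, chromosome 4 from 118143796 to 118162666) had 41.9, 22.9 and 71.1 CPM in WT and 4.04, 1.04 and 4.79 CPM in Scl-/- libraries 1 to 3. The lowest of these values stood for an estimated 43 reads, in Scl-/- replicate 2. With a log2 fold change of -3.64 (95% interval -4.92 to -2.36, limma's adjusted p = 0.0206, or 1.11e-05 with the block), it was 13.8-fold lower by the group means and ranked at place 11 from the lowest among all tested genes.

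**Figure D2:**
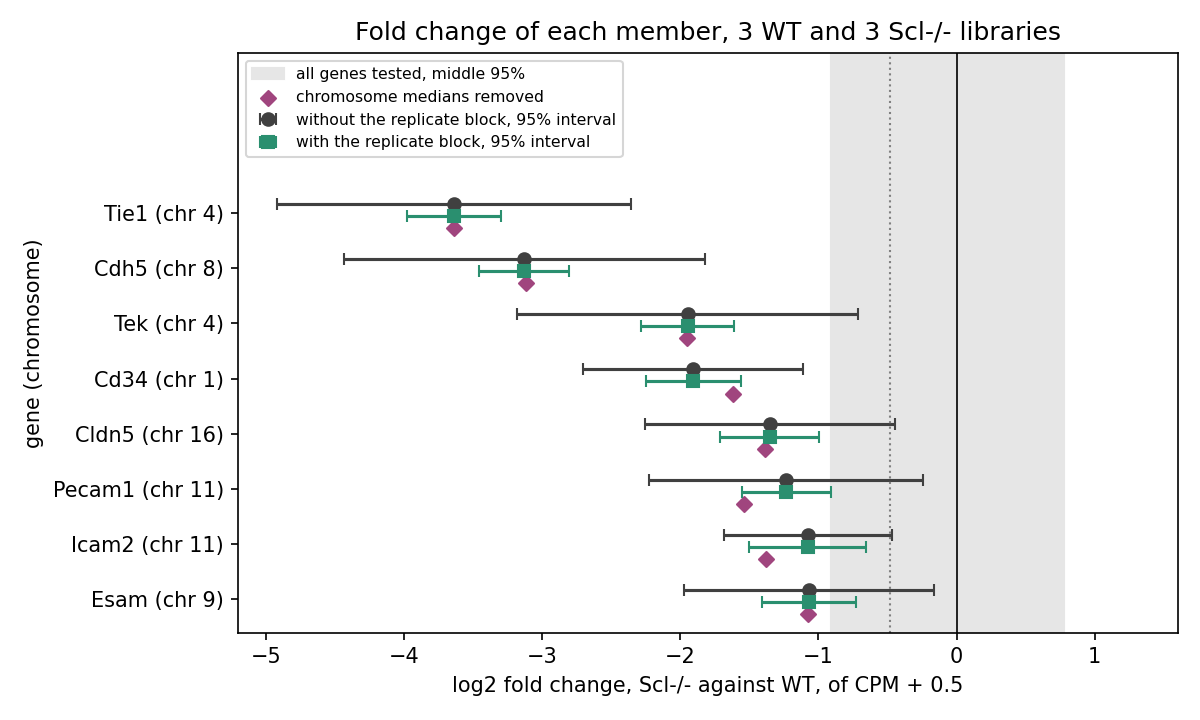
Log2 fold change of each measured gene with its 95% interval from limma without (black) and with (green) the replicate block, and after removal of each chromosome's median (purple). The grey band holds the middle 95% of all tested genes, from -0.91 to 0.78, the dotted line is the threshold, 0.48 below 0, and all 8 estimates lie left of the band.

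To compare the receptors with each other, levels were divided by exon length. Per kb of exon, the ratio of Tie1 to Tek was 1.08, 1.23 and 1.65 in WT and 0.401, 0.324 and 0.342 in Scl-/- replicates 1 to 3. Tie1 was thus above Tek in 3 of 3 WT libraries and below it in 3 of 3 Scl-/- libraries. The mean ratio was 1.32 ± 0.296 (SD, n = 3) in WT and 0.356 ± 0.04 (SD, n = 3) in Scl-/- cells. The log2 ratio differed by -1.88 (exact two-sided permutation test, p = 0.1, the smallest that 3 against 3 libraries allow, or 0.129 after Benjamini-Hochberg adjustment over the 9 ratios tested), and by -1.43, -1.93 and -2.27 within the pairs. A pair picked after its values had been seen, Cdh5 and Pecam1, gave a similar picture, with a Cdh5 level per kb of 9.57, 7.90 and 9.59 times that of Pecam1 in WT and 2.62, 2.00 and 2.84 times in Scl-/- libraries, and this is given with no test.

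**Figure D3:**
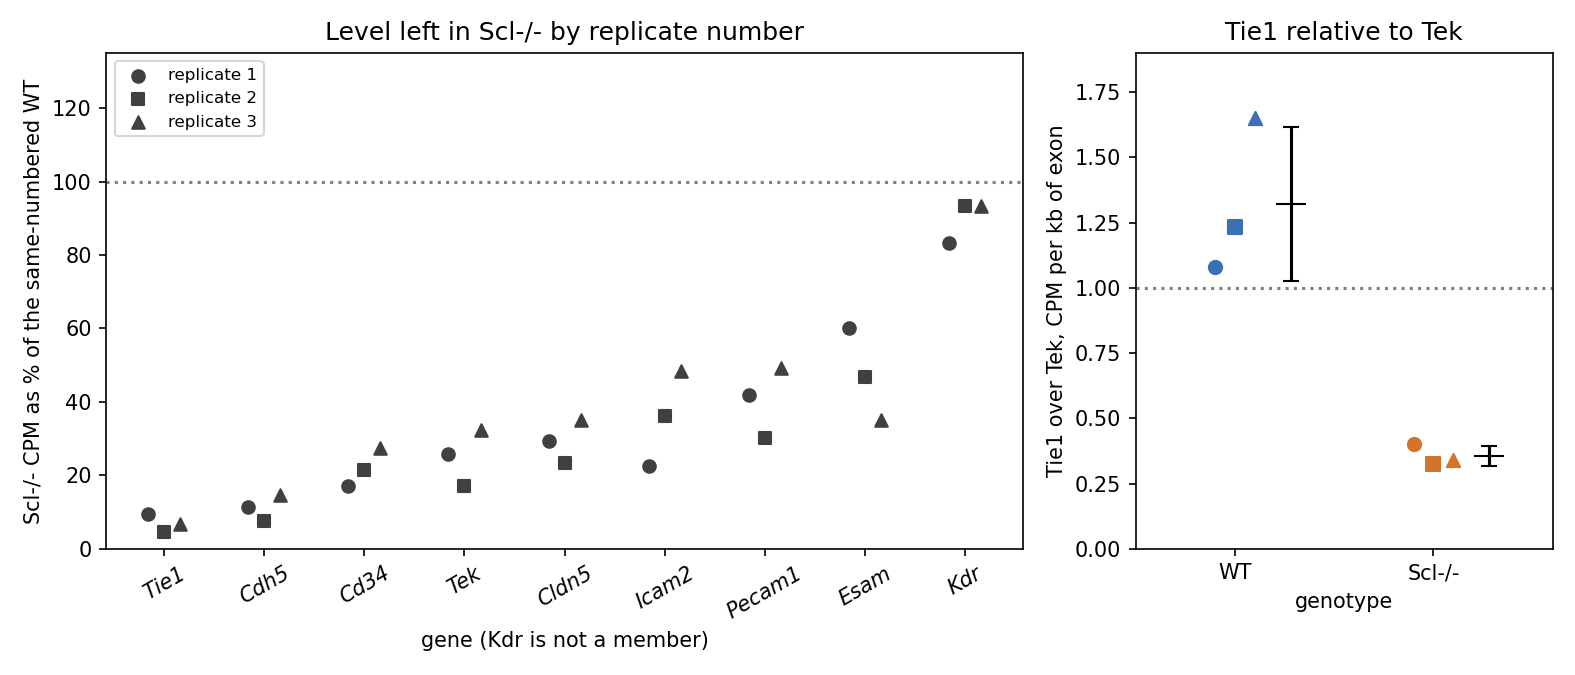
Left, CPM of each Scl-/- library as a percentage of the WT library of the same number, for the 8 genes and Kdr. Right, the ratio of Tie1 to Tek per kb of exon in each library, with mean and SD beside the points. Tie1 kept 4.53% to 9.63% and Esam 35.003% to 60.2% of the WT level, and the ratio lay above 1 in WT and below it in Scl-/- libraries.

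The order of the levels also differed between the genotypes. Per kb of exon, Cdh5 had the highest mean in WT cells, 26.3 ± 11.2 CPM per kb (SD, n = 3), and came first in each WT library. Tie1 was second in each WT library, with a mean of 9.22 ± 4.94 CPM per kb (SD, n = 3). Tek and Esam followed with means of 6.82 and 6.71 CPM per kb and changed places between libraries, so that they did not differ beyond their spread. Cd34, Pecam1 and Cldn5, with means of 3.02, 2.85 and 2.49 CPM per kb, also changed places. Icam2 was last in each WT library, with a mean of 1.14 CPM per kb.

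In Scl-/- cells, Cdh5 and Esam had means of 3.21 ± 2.12 and 3.07 ± 1.18 CPM per kb (SD, n = 3), and Esam came first in Scl-/- replicates 1 and 2. Tek took place 3 and Pecam1 place 4 in each Scl-/- library. Tie1 took places 5, 8 and 7 in Scl-/- replicates 1 to 3, with a mean of 0.669 CPM per kb, close to Cldn5 at 0.773 and Cd34 at 0.689 CPM per kb. These 3 genes could not be put in an order beyond their spread. Icam2 had a mean of 0.421 CPM per kb.

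**Figure D4:**
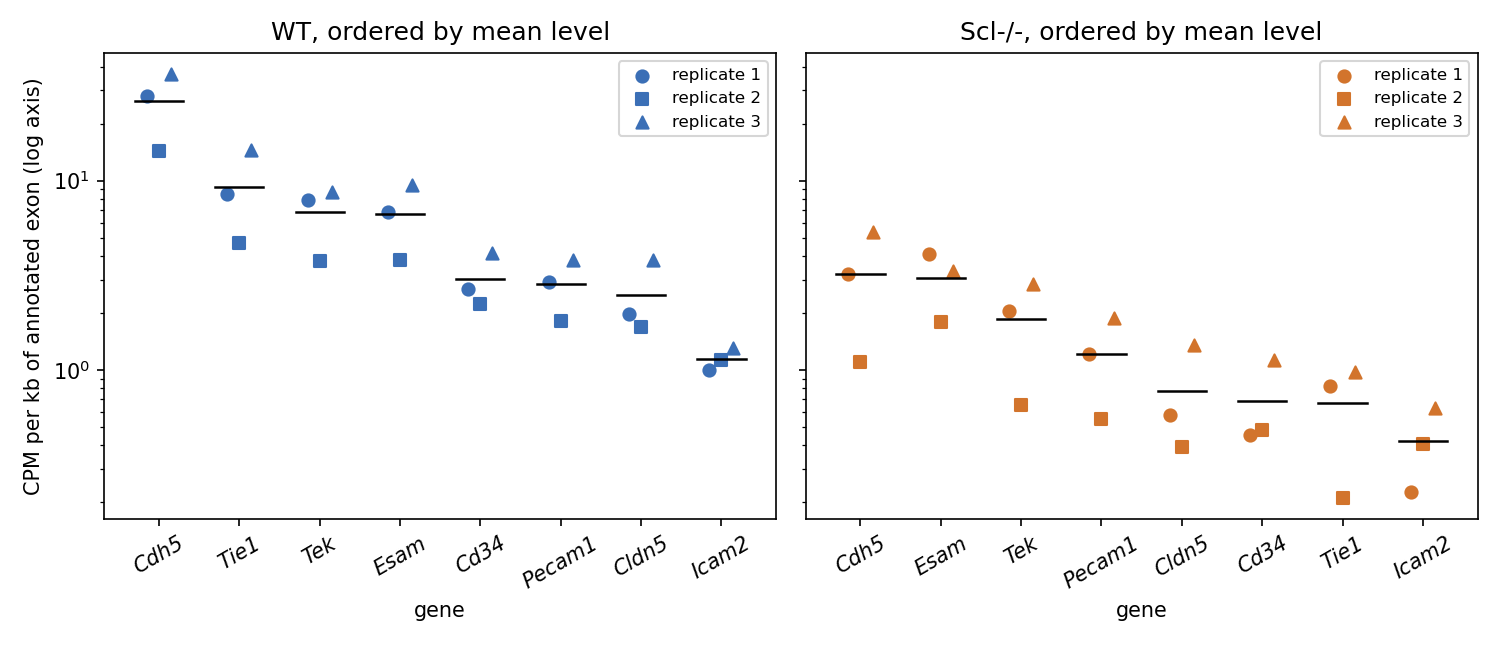
CPM per kb of annotated exon, on a log axis, of the 8 genes in the 3 WT (left) and 3 Scl-/- (right) libraries, each ordered by mean level (black bars). Tie1 is second in WT, at a mean of 9.22 CPM per kb, and seventh in Scl-/-, at 0.669 CPM per kb.

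Levels were also set against Kdr, as log2 ratios with no pseudocount, so that their size cannot be compared with the log2 fold changes given above for low genes such as Icam2 and Cldn5. The Cdh5 level per kb was 23.4%, 12.5% and 30.7% of that of Kdr in WT and 3.22%, 1.03% and 4.79% in Scl-/- replicates 1 to 3, a log2 difference of -3.05 (exact two-sided permutation test, p = 0.1, the smallest possible). For Tie1 it was 7.15%, 4.08% and 12.1% in WT and 0.826%, 0.198% and 0.874% in Scl-/- libraries, a log2 difference of -3.76 (exact two-sided permutation test, p = 0.1). Icam2, Cldn5, Cd34 and Tek gave log2 differences of -1.40, -1.64, -2.06 and -1.88, each with an exact two-sided permutation p of 0.1, adjusted to 0.129 like those of Cdh5 and Tie1. Pecam1 and Esam gave -1.18 and -0.96, each with an exact two-sided permutation p of 0.2, which the adjustment left at 0.2, since their groups overlapped. Within the pairs, the ratio to Kdr was lower in the Scl-/- library in 3 of 3 pairs for each of the 8 genes.

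Libraries of one genotype differed in step across these genes. WT replicate 2 was the lowest WT library for 7 of the 8, all but Icam2, and WT replicate 3 was the highest for 8 of 8. Scl-/- replicate 2 was the lowest of its group for 6 of the 8, all but Icam2 and Cd34, and Scl-/- replicate 3 was the highest for 7, all but Esam. The summed CPM of the 8 genes was 234, 127 and 320.4 in WT and 45.9, 18.6 and 63.1 in Scl-/- replicates 1 to 3. In the summed level of the FLK1+ mesoderm markers, replicate 2 was instead the highest of each group, with 1718, 2002 and 1893 CPM in WT and 1924, 2409 and 2375 CPM in Scl-/- libraries 1 to 3. This did not hold for each marker, since Kdr was lowest in WT replicate 2 and Hand1 had 417, 354 and 487 CPM in WT and 444, 217 and 292 CPM in Scl-/- libraries. All 6 of these markers were measured, Kdr with the most CPM, and T, Pdgfra, Mesp1 and Eomes were called as higher in Scl-/- cells with the block and 0 without it, where 3 had an unadjusted p under 0.05 by limma. Kdr and Hand1 had lower means in Scl-/- cells and were not called in either fit, but Hand1, on chromosome 11, was called as lower once chromosome medians were removed and the block was used (log2 fold change -0.76).

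Markers of other cell types differed between the genotypes too, and their counts stand beside 12.6% of all tested genes called in either direction with the block and 2.36% without it. The 5 haematopoietic markers measured had a summed level of 43.1, 22.0 and 59.5 CPM in WT and 3.44, 3.14 and 4.01 CPM in Scl-/- libraries 1 to 3. All 5 were called as lower with and without the block. Itga2b had the most CPM of them, Hbb-bh1 was listed at 0 in 3 of 3 Scl-/- libraries, and Ptprc, Klf1, Hba-x and Cd33 were not analysed here. The mature endothelial markers Plvap, Nos3 and Vwf, 3 of 6, summed to 47.3, 26.1 and 59.4 CPM in WT and 19.5, 10.8 and 23.8 CPM in Scl-/- libraries. Of the 3 genes, 2 were called as lower with the block and 1 without it.

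Cardiac markers, 5 of 8 measured and led in CPM by Gata4, summed to 208, 299.7 and 203 CPM in WT and 306, 395 and 338 CPM in Scl-/- libraries 1 to 3, with 3 called as higher with the block. Gata4 alone had 187, 272 and 177 CPM in WT and 271, 350 and 296 CPM in Scl-/- libraries, so that it made up most of these sums. Of the 5 cardiac genes, 2 had lower means in Scl-/- cells. Tnnt2, Myh6 and Tbx5 were not analysed here. Paraxial markers, 4 of 5 measured and led in mean CPM by Dll1, summed to 14.5, 77.8 and 18.2 CPM in WT and 18.6, 145.7 and 56.1 CPM in Scl-/- libraries, with 3 called as higher with the block, or 2 without Dll1 once chromosome medians were also removed, and Meox1 was not analysed here. In replicate 2, Dll1 alone had 60.2 CPM in the WT and 115 CPM in the Scl-/- library. Pluripotency markers, 5 of 6 measured and led in CPM by Pou5f1, summed to 88.5, 153 and 113 CPM in WT and 88.3, 228 and 218 CPM in Scl-/- libraries, with 2 called as higher and 1 as lower with the block, and Dppa3 was not analysed here. Endoderm and epithelial markers, 3 of 6 measured and led in CPM by Cdh1, summed to 27.8, 44.9 and 26.2 CPM in WT and 35.8, 63.6 and 92.6 CPM in Scl-/- libraries, with 1 called as higher with the block, and Foxa2, Afp and Ttr were not analysed here. Without the block 0 genes of these 4 lists were called by limma, with 2, 1, 1 and 1 at an unadjusted p under 0.05. The part of any of these cell types in the levels of the endothelial genes was not tested.

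The members' chromosomes did not all have the same background. Tested genes of chromosome 11, where Pecam1 and Icam2 lie, had a median of 0.31 on the log2 scale, and 13.5% of these 1211 genes were lower in Scl-/- cells. Only 24 of them lay below Pecam1 and 32 below Icam2. Genes of chromosome 1, where Cd34 lies, had a median of -0.29, and 86.3% of these 789 genes were lower, with 9 below Cd34. The other chromosomes of the set, 4, 8, 9 and 16, had medians between -0.01 and 0.03. On chromosome 4, 5 of 932 genes lay below Tek and 1 below Tie1, and on chromosome 8, 1 of 771 lay below Cdh5.

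With each chromosome's median removed, the log2 fold changes were -1.54 for Pecam1, -1.38 for Icam2 and -1.62 for Cd34. Icam2 was then called without the block as well (limma's adjusted p = 0.0264), and 4 of the 8 genes passed. In this fit 277 of all 13991 tested genes were called, against 330 before the removal. Pecam1 had a limma adjusted p of 0.151 without and 0.000681 with the block, and Cd34 of 0.047 and 0.00035. With both the medians removed and the block, 8 of 8 were called, where 5.9% of all tested genes were called as lower.

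The related genes were taken from lists by function, in which the members themselves and Tal1 are left out of the counts unless stated. Of all tested genes, 6.6% were called as lower and 6.04% as higher with the block, and 1.57% and 0.793% without it. Of 10 other genes of the angiopoietin-TIE axis, 4 were called as lower and 1 as higher with the block, and 1 as lower without it, with a median log2 fold change of -0.34. The gene called in both fits was Ptprb, which encodes the vascular phosphatase that acts on TEK and VE-cadherin. It had 39.5, 24.4 and 39.2 CPM in WT and 6.19, 8.82 and 7.30 CPM in Scl-/- libraries 1 to 3, a log2 fold change of -2.11 (limma's adjusted p = 0.00687, or 0.000412 with the block). Foxo1, a transcription factor restrained by TEK signalling, had a log2 fold change of -0.75, Angptl2 of -0.72, Svep1 of -0.67 and the adaptor Dok2 of 0.52, and these were called with the block only. The ligand Angpt2 had 9.08, 5.59 and 1.53 CPM in WT and 4.45, 4.21 and 2.68 CPM in Scl-/- libraries. It was not called in either fit (limma's adjusted p = 0.912, or 0.597 with the block), nor were Grb14 and Angptl4. Angpt1 and Angpt4 were not analysed here.

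Most partners of VE-cadherin at adherens junctions did not pass. Of 19 genes, 2 were called as lower and 1 as higher with the block, and 0 were called without it, where 5 had an unadjusted p under 0.05 by limma. With the block, 12.6% of all tested genes were called in either direction, so that 3 of 19 is near that share. The median log2 fold change was -0.12. The catenin genes Ctnnb1, Ctnna1 and Ctnnd1, whose products bind the cadherin tail, had log2 fold changes of -0.10, -0.12 and -0.13 and were not called in either fit. Rasip1, a RAP1 effector of vessel lumen formation, had 61.2, 38.1 and 83.0 CPM in WT and 36.8, 22.8 and 43.0 CPM in Scl-/- libraries 1 to 3 (log2 fold change -0.80, limma's adjusted p = 0.256, or 0.000465 with the block). Radil, another RAP1 effector, had a log2 fold change of -0.57. N-cadherin (Cdh2) went the other way, with 284, 495 and 261 CPM in WT and 409, 677 and 446 CPM in Scl-/- libraries (log2 fold change 0.58, limma's adjusted p = 0.341, or 0.00147 with the block). Its WT replicate 2 was the highest of its group, where that of Cdh5 was the lowest.

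Of 14 genes of tight and gap junctions, 3 were called as lower and 2 as higher with the block, and 1 as higher without it, with a median log2 fold change of -0.04. Gja4, the connexin of arterial endothelium, had 11.9, 4.16 and 22.99 CPM in WT and 4.43, 1.11 and 6.10 CPM in Scl-/- libraries 1 to 3 (log2 fold change -1.56, limma's adjusted p = 0.298, or 0.000305 with the block). Cgnl1 and Tjp1, which code for cytoplasmic plaque proteins, had log2 fold changes of -1.17 and -0.57. Cldn4, an epithelial claudin, had 2.01, 2.54 and 2.77 CPM in WT and 6.05, 6.62 and 14.5 CPM in Scl-/- libraries, a log2 fold change of 1.61 against -1.35 for Cldn5. The connexin gene Gja1 was called as higher in both fits, with a log2 fold change of 0.65. F11r and Cldn12 were not called in either fit.

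Other adhesion molecules of the immunoglobulin family and integrins showed a median log2 fold change of 0.15 over 9 genes. The 1 of 9 called in either fit, where the block called 12.6% of all tested genes, was Itgb3, an integrin subunit of platelets and endothelium, with 4.92, 3.14 and 7.67 CPM in WT and 0.779, 0.556 and 1.07 CPM in Scl-/- libraries 1 to 3 (log2 fold change -2.08, limma's adjusted p = 0.0223, or 0.000206 with the block). Pvrl2 and Itgav, which had the highest mean CPM of those not called, had log2 fold changes of 0.20 and 0.22. Of 8 other surface sialomucins and lectins, 4 were called as lower and 1 as higher with the block, and 1 as lower without it, with a median log2 fold change of -0.63. Cd93 had 5.17, 4.89 and 6.73 CPM in WT and 0.287, 0.894 and 0.68 CPM in Scl-/- libraries and was called in both fits (log2 fold change -2.47). Thrombomodulin (Thbd), the CD34 relative Podxl and Procr had log2 fold changes of -1.64, -1.09 and -1.01 and passed with the block only, as did the mannose receptor Mrc1 with 0.95. Cd164, Prom1 and Stab1 passed in neither fit.

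Of 32 other genes of endothelium, 14 were called as lower and 5 as higher with the block, 15 and 3 once chromosome medians were also removed, and 7 as lower without the block, with a median log2 fold change of -0.38. Nos3, the endothelial nitric oxide synthase, had 22.8, 11.2 and 31.5 CPM in WT and 1.29, 1.28 and 2.81 CPM in Scl-/- libraries 1 to 3. Edn1, which encodes endothelin, and Eltd1, an adhesion receptor, had log2 fold changes of -2.66 and -2.65, and Ushbp1, Myct1 and Egfl7 of -2.40, -1.77 and -1.72. Of these 6 genes, all but Egfl7 were called in both fits. Kdr, Nrp1 and Ramp2 had the highest mean CPM of those called in neither, and Ramp2, on chromosome 11, was called as lower with chromosome medians removed and the block (log2 fold change -0.71). In that fit Flt4, also on chromosome 11 (log2 fold change 0.61 before and 0.30 after the removal), and Rasgrp3 (0.50 and 0.48) lost their call as higher. Apln, Sh2d3c and Robo4, with log2 fold changes of 1.28, 0.64 and 0.55 before the removal, kept theirs. Of 24 transcription factors of endothelium, 14 were called as lower and 1 as higher with the block, 7 and 1 without it, with a median log2 fold change of -0.83. The authors count Fli1 and Gata2 among genes required for blood development, so this list is not one of endothelium alone. Erg, Fli1, Lyl1, Sox7 and Gata2 had log2 fold changes of -3.11, -3.09, -2.69, -2.37 and -2.23, and Etv6, Tcf4 and Elk3 passed in neither fit. The 1 higher gene was Etv2, named after its value was seen, an early regulator of FLK1+ haemato-endothelial progenitors, with 114, 128 and 138 CPM in WT and 199, 214 and 239.6 CPM in Scl-/- libraries.

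**Figure D5:**
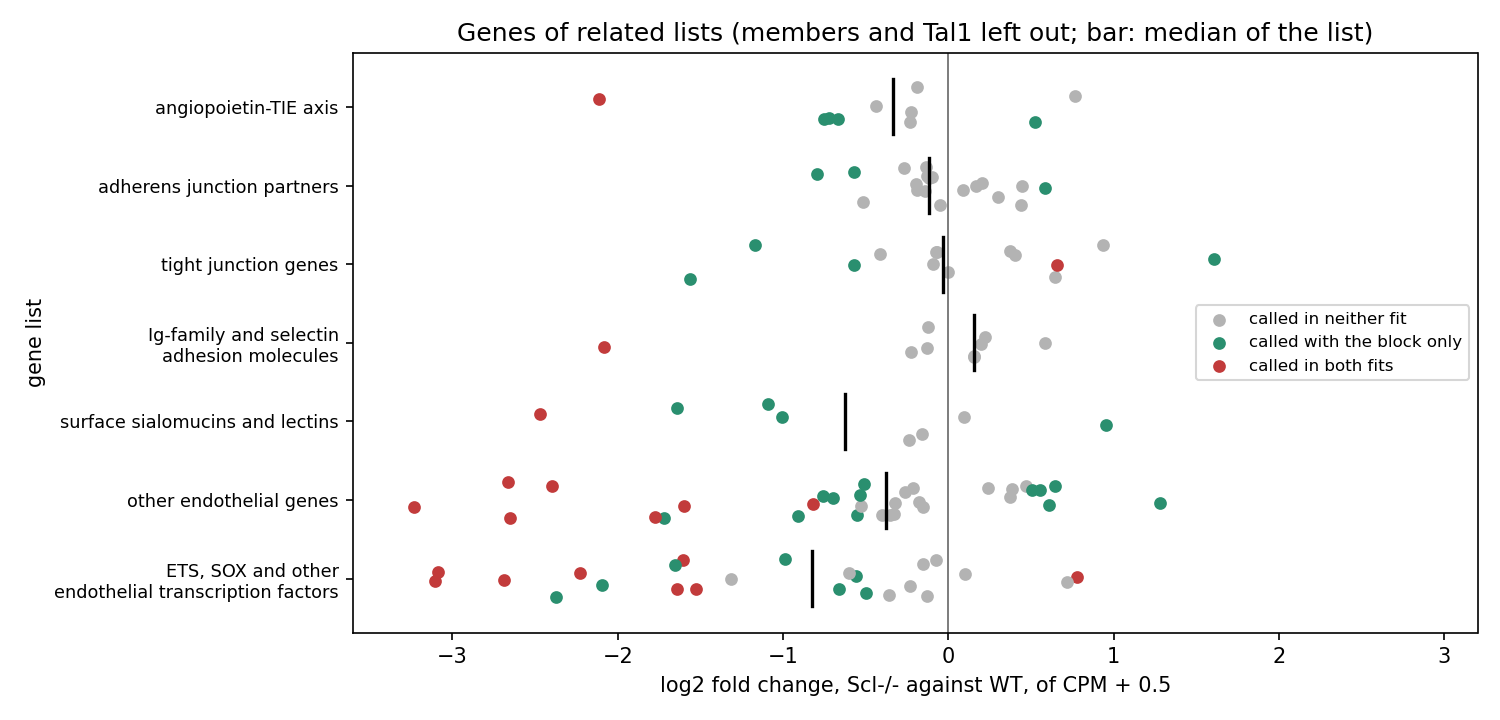
Log2 fold change of the genes of 7 related lists, with the members and Tal1 left out, coloured by whether limma called the gene in both fits (red), with the replicate block only (green) or in neither (grey). Black bars are the medians of the lists, from -0.83 for the transcription factors to 0.15 for the adhesion molecules, beside 0.009 for all tested genes.

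The counts without the block again depended on the libraries in the fit, of which the one without WT replicate 1 called 44 of all 13991 genes, against 330 with all libraries. Counted with Tek, Tie1 and Tal1, 2 genes of the angiopoietin-TIE axis, 0 of the adherens junction partners, 1 of the tight junction genes, 1 of the adhesion molecules, 1 of the sialomucins and lectins, 7 of the other endothelial genes and 9 of the transcription factors were called. Without WT replicate 1 these counts were 0, 0, 0, 0, 0, 0 and 1. Without WT replicate 3, the axis had 1 and the tight junction genes and adhesion molecules had 0. Without Scl-/- replicate 2, the tight junction genes and adhesion molecules had 0 and the other endothelial genes 3. Without Scl-/- replicate 1, the adherens junction partners had 1, the tight junction genes 2 and the adhesion molecules 0, and without WT replicate 2 the tight junction genes and the sialomucins and lectins had 2 each.

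Profiles over the 6 libraries were compared by the root mean square distance of log2(CPM + 0.5) after each gene's mean was removed, as a description over libraries that share genotype and replicate number. Within the set, the nearest pairs were Pecam1 and Cldn5 at 0.26, Pecam1 and Esam at 0.29, Cldn5 and Cd34 at 0.31 and Cdh5 and Tie1 at 0.31. Tie1 and Icam2 were the farthest apart, at 1.47. Tek was nearer to Pecam1, at 0.40, than to Tie1, at 0.87. At the low levels of Cldn5 and Icam2, the pseudocount narrows the profiles. Distances were not computed with another pseudocount, so the order of pairs at such close distances is not settled.

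Among other tested genes whose mean reached 5 CPM, Erg, Tnfaip2 and Nos3 were nearest to Cdh5, at 0.27, 0.30 and 0.46, and also to Tie1, at 0.37, 0.40 and 0.50. Erg, an ETS factor of endothelium, had 14.6, 9.96 and 19.2 CPM in WT and 1.52, 0.459 and 2.00 CPM in Scl-/- libraries 1 to 3. For Tek the nearest genes were Sox17, Nbeal2 and Egfl7, at 0.20, 0.25 and 0.28. Sox17 had 14.7, 6.53 and 22.0 CPM in WT and 2.95, 0.967 and 5.56 CPM in Scl-/- libraries, with the replicate 2 library lowest in each group, as for Tek. Cd34 was nearest to Sepp1, Col18a1 and Rnd2, at 0.21, 0.25 and 0.26. Pecam1 was nearest to Dact2, Pcdh1 and Arap3, at 0.10, 0.13 and 0.16, and Cldn5 to Rtn4rl2, Dact2 and Atp2a3, at 0.12, 0.23 and 0.24. Esam was nearest to Tubb3, Plekhh3 and Gngt2, at 0.08, 0.12 and 0.13, and Icam2 to F2rl1, Arhgef28 and Trh, at 0.12, 0.15 and 0.16.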

How the data were processed

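The 3 WT and 3 Scl-/- libraries of day 3.5 FLK1+ cells were grouped by their labels. The authors deposited 1 table of CPM values, made by alignment to mm9 and TMM normalisation, and the submitters' processing notes name TopHat2 2.0.8b, SAMtools 0.1.19 and edgeR. The counting tool, annotation and strand setting are not given in the sources used here. Removal of duplicate read pairs by the authors can limit the values of short and of highly expressed genes. Within a column the values were whole multiples of 1 step, to within 0.05 of a step, and reads per gene and depth were estimated from it for description. The table did not meet the criterion set for whole reads recovered, so these numbers are estimates and no count model was run. The number of per-sample columns not used was 0.

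The tests covered the 13991 genes that reached 0.5 CPM in 3 or more libraries. They used limma 3.58.1 under R 4.3.3 (eBayes with trend) on log2(CPM + 0.5), a fit tried out on simulated data, with Benjamini-Hochberg adjustment over these genes. The fit without a block was the main one. Libraries of the same number were taken as pairs, from the replicate numbers in the labels and the 3 independent differentiations of the design text, and their deviations from the group means correlated across genes at 0.587, 0.756 and 0.748 for replicates 1 to 3 (-0.621 to -0.0996 for unlike numbers), so the fit with the replicate number as a block is given beside it. Deviations from a group mean cancel out within the group, so negative values for unlike numbers partly follow from the positive ones and are no separate evidence. The block alters the error of a log2 fold change, not its value.

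The members and lists were chosen with earlier results of these data known. Named were the members, Tal1 and Kdr, in each related list the genes called in either fit up to the 6 with the largest change and up to 3 abundant genes not called, the 3 nearest profiles of each member, and for other cell types the most abundant gene and markers at 0 or without values. Etv2, Vwf, T, Pdgfra, Mesp1, Eomes, Hand1, Flt4, Rasgrp3, Apln, Sh2d3c, Robo4 and the ratio of Cdh5 to Pecam1 fall outside this rule and were chosen after their values were seen. Positions and exon lengths of genes are from GENCODE on mm9, and promoters are from RefSeq on GRCm38.p6. Alternatives were other pseudocounts (0.1, 1), other filters (none, or 2 CPM on average), median-ratio rescaling, no trend, no fold-change threshold, chromosome medians removed, the block, and each library or pair left out. Python 3.11.15, NumPy 2.4.6, pandas 2.3.3, SciPy 1.17.1 and Matplotlib 3.10.9 served for the rest.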

Additional observations from a re-analysis of the deposited data

How the results depend on the processing

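Over 19 alternative settings the log2 fold change of the 8 genes was below 0 in 151 of 151 fits. It lay between -4.05 and -3.08 for Tie1, -3.61 and -2.53 for Cdh5, -2.24 and -1.62 for Cd34, -2.35 and -1.37 for Tek, -1.70 and -1.04 for Cldn5, -1.59 and -0.80 for Pecam1, -1.42 and -0.84 for Icam2, and -1.41 and -0.74 for Esam. Icam2 had no value at a mean of at least 2 CPM, which it did not reach. The block alone, other filters, no trend and no fold-change threshold do not alter a log2 fold change. In these fits the sign was set by the main fit. Of 13991 tested genes 330 were called without the block, 1768 with the replicate block and 1495 with the block and chromosome medians removed. Leaving out single libraries gave between 44 and 384 called genes. With the block and both libraries of number 1, 2 or 3 left out, 2062, 1122 and 1210 were called. Of the 8 genes 3 were called without the block, between 0 and 3 with single libraries left out, 8 with the replicate block, 8 with the block and chromosome medians removed, and 8, 8 and 8 with the block and number 1, 2 or 3 left out. The block changed the calls of Pecam1, Icam2, Esam, Cldn5 and Tek and no other call of the set. Of the related lists, counted with Tek, Tie1 and Tal1, the angiopoietin-TIE axis had 2 called genes without and 7 with the block, 7 with the block and chromosome medians removed, 8, 5 and 5 with the block and number 1, 2 or 3 left out, and 0 to 2 without single libraries. In the same order, the counts were 0, 3, 3, 4, 4 and 2, and 0 to 1 for adherens junction partners, 1, 5, 5, 7, 5 and 5, and 0 to 2 for tight junction genes, 1, 5, 5, 5, 5 and 4, and 0 to 2 for sialomucins and lectins, 7, 19, 18, 21, 15 and 11, and 0 to 9 for other endothelial genes, and 9, 16, 16, 17, 14 and 16, and 1 to 11 for transcription factors. Adhesion molecules stayed at 1 under each of these block settings and had 0 to 1 without single libraries. Removing chromosome medians gave 2 tight junction genes, and a pseudocount of 0.1, no filter or no trend gave 2 sialomucins and lectins each. Without single libraries the log2 ratio difference lay between -2.01 and -1.70 for Tie1 to Tek and, relative to Kdr, between -4.16 and -3.06 for Tie1, -3.52 and -2.41 for Cdh5, -2.45 and -1.82 for Cd34, -2.28 and -1.25 for Tek, -2.10 and -1.24 for Cldn5, -1.72 and -1.06 for Icam2, -1.54 and -0.69 for Pecam1 and -1.30 and -0.61 for Esam. Fewer libraries leave fewer degrees of freedom, and the cause of the difference between single libraries was not tested. With 3 libraries a group, an exact permutation test cannot go below 0.1, and the lowest values rest on few reads, an estimated 21 for Icam2, 23 for Cldn5 and 43 for Tie1.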
